A study of Sus scrofa with 35 samples.

Results

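Whole blood of crossbred pigs was compared with whole blood of Creole pigs, both kept at thermoneutrality. The F1 TN group held 6 pigs of the first cross of Large White and Creole, and the CR TN group held 5 pigs of the Creole breed (CR), a local Caribbean breed, so that 11 of the 35 arrays of the series were compared. Members were taken by breed and ambient temperature in the labels, 24 °C for TN. The other arrays were 6 each of Large White (LW), a commercial European breed, at 24 °C and of the 3 breeds under heat stress (HS), labelled 30 °C (the study's protocol gives a slightly higher setting), and their values are given beside those of the F1 and CR pigs. All pigs were castrated growing males that had moved to a climatic room in the third month of life, and per its methods slaughter of the TN animals came before the room was warmed. Blood was collected in tubes that stabilise RNA, and Cy3-labelled RNA was hybridised alone to a porcine array of 60-base probes. The labels do not give pen, litter, slaughter day or parents. By the methods the pigs of a breed came from 3 litters, each spread over both climates, so pigs of a group include littermates that the fit takes as independent, and p-values over them may be too small. Litter and parents cannot be told apart from breed.

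Blood RNA is a mixture. Immature red cells, which make haemoglobin, platelets, neutrophils, monocytes, T cells, B cells and cytotoxic lymphocytes each add their own transcripts. More cells of a type and more RNA per cell cannot be told apart in such a sample. F1 pigs inherit 1 chromosome of each pair of autosomes from a Large White parent and the other from a Creole parent. Mitochondrial DNA and, in males, the X chromosome come from the mother alone. An array probe reads a transcript through base pairing, so a transcript whose bases differ from the probe can bind it less well. Of 29 defining markers of blood cells, 26 were on the array and in the expression table, between the 18.4th and the 100th percentile of all genes. Of 5 markers of liver, muscle, fat and thyroid, 4 were in the table, between the 5.93rd and the 32.4th percentile.

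Few probes separated the breeds. Of 39072 probes in the authors' log2 table, 10 (0.0256%) passed an adjusted p of 0.05 in limma, 1 higher (0.00256%) and 9 lower (0.023%) in F1 than in CR. At an unadjusted p of 0.05, 6021 probes (15.4%) passed, 3519 higher (9.01%) and 2502 lower (6.4%) in F1. A difference of 2-fold or more with an unadjusted p of 0.05 was seen in 92 probes (0.235%), 60 higher and 32 lower in F1. The probes were grouped into 10506 genes by symbol. At an unadjusted p of 0.05, 1685 genes (16.0%) passed, and after adjustment 2 genes (0.019%) passed, TSPAN7 and TSPAN6, both lower in F1. In 21 other settings of the gene fit TSPAN7 passed in 18 and TSPAN6 in 3, and with the brightest probe of each gene or with the arrays of both groups alone no gene passed in limma (1815 and 1444 genes at an unadjusted p of 0.05).

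The probes that passed are shown by the first 30 of their 60 bases, 5′ to 3′ as the array files give them, because most carry no gene name and the sequence is what identifies them. Capitals mark bases that the first 3 probes have in common.
A_72_P166441 (TSPAN7): tctGTCTCGCATGCCAACAAGAATGCATTG
AY610049 probe: tctGTCTCGCATGCCAACAAGAATGCATTG
A_72_P499239 (AK236698): GTCTCGCATGCCAACAAGAATGCATTGATA
A_72_P015431 (TC610263): cagaaaatgataaatcctgcctcatagcac
AK239358 probe: cgtttgctgaaaaggcgttgagttagtatg
A_72_P135376 (TC551881): agaagcacagcacaaaactacagaagcact
A_72_P097651 (TC592761): gaccttcgttacctactttccctttgtaag
A_72_P366648 (TC627041): ccctgaatatttcaatatacatttatgaag
A_72_P530953 (TSPAN6): ccccatatcaccccgaaacactggaagagc
A_72_P145376 (DY418436): atggcaaactctaatctttgaaccctcagc

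The first 3 probes of these lines are 1 measurement. The first and the second carry the same 60 bases, and all 3 share a run of 57 bases. Only 1 of them has a gene in the files, LOC100526026, whose gene ID is TSPAN7 in the RefSeq table of Sscrofa11.1. TSPAN7 is a tetraspanin, a membrane protein with 4 spans that organises other membrane proteins. On the log2 scale of the table, A_72_P166441 read 8.30, 7.11, 7.82, 7.91 and 7.36 in the CR TN pigs. In F1 TN it ran from 5.43 to 6.24 with a median of 5.70. The groups did not overlap, and the lowest CR pig lay above the highest F1 pig. The difference was -1.93 (SE 0.20), or 3.81-fold lower in F1, with an adjusted p of 5.83e-07 in limma. The probe was well above background on 5 of 5 CR TN arrays but on 4 of 6 F1 TN arrays. The fold therefore depends on how background is treated, and over 20 settings the difference ran from -2.87 to -1.50. The probe of AY610049 gave -2.07 (SE 0.19, adjusted p 9.22e-08 in limma) and A_72_P499239 gave -1.75 (SE 0.17, adjusted p 1.37e-07 in limma).

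At thermoneutrality the TSPAN7 level of every F1 pig lay within the range of the LW pigs. A_72_P166441 ran from 5.32 to 6.42 in LW TN, with a median of 5.65. F1 minus LW was 0.05 (SE 0.19), while CR minus LW was 1.98 with an adjusted p of 3.23e-07 in limma. The 3 comparisons share arrays, so they are values side by side and not independent findings. Under heat the CR pigs ran from 7.28 to 8.04 and the F1 pigs from 5.40 to 6.42, a difference of -1.65 (adjusted p 7.36e-06 in limma). LW HS pigs ran from 5.43 to 5.95, all below the F1 HS median of 6.26. The HS pigs are other animals, though littermates of the TN pigs, and again no F1 pig reached the lowest CR pig. Another probe named TSPAN7, O1351, shares no run of 18 bases with these and went the other way, with 0.46 (unadjusted p 0.0194) in TN and -0.03 in HS. The mean over the gene's probes, -0.74 (adjusted p 0.00419), therefore joins probes that disagree.

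**Figure D1:**
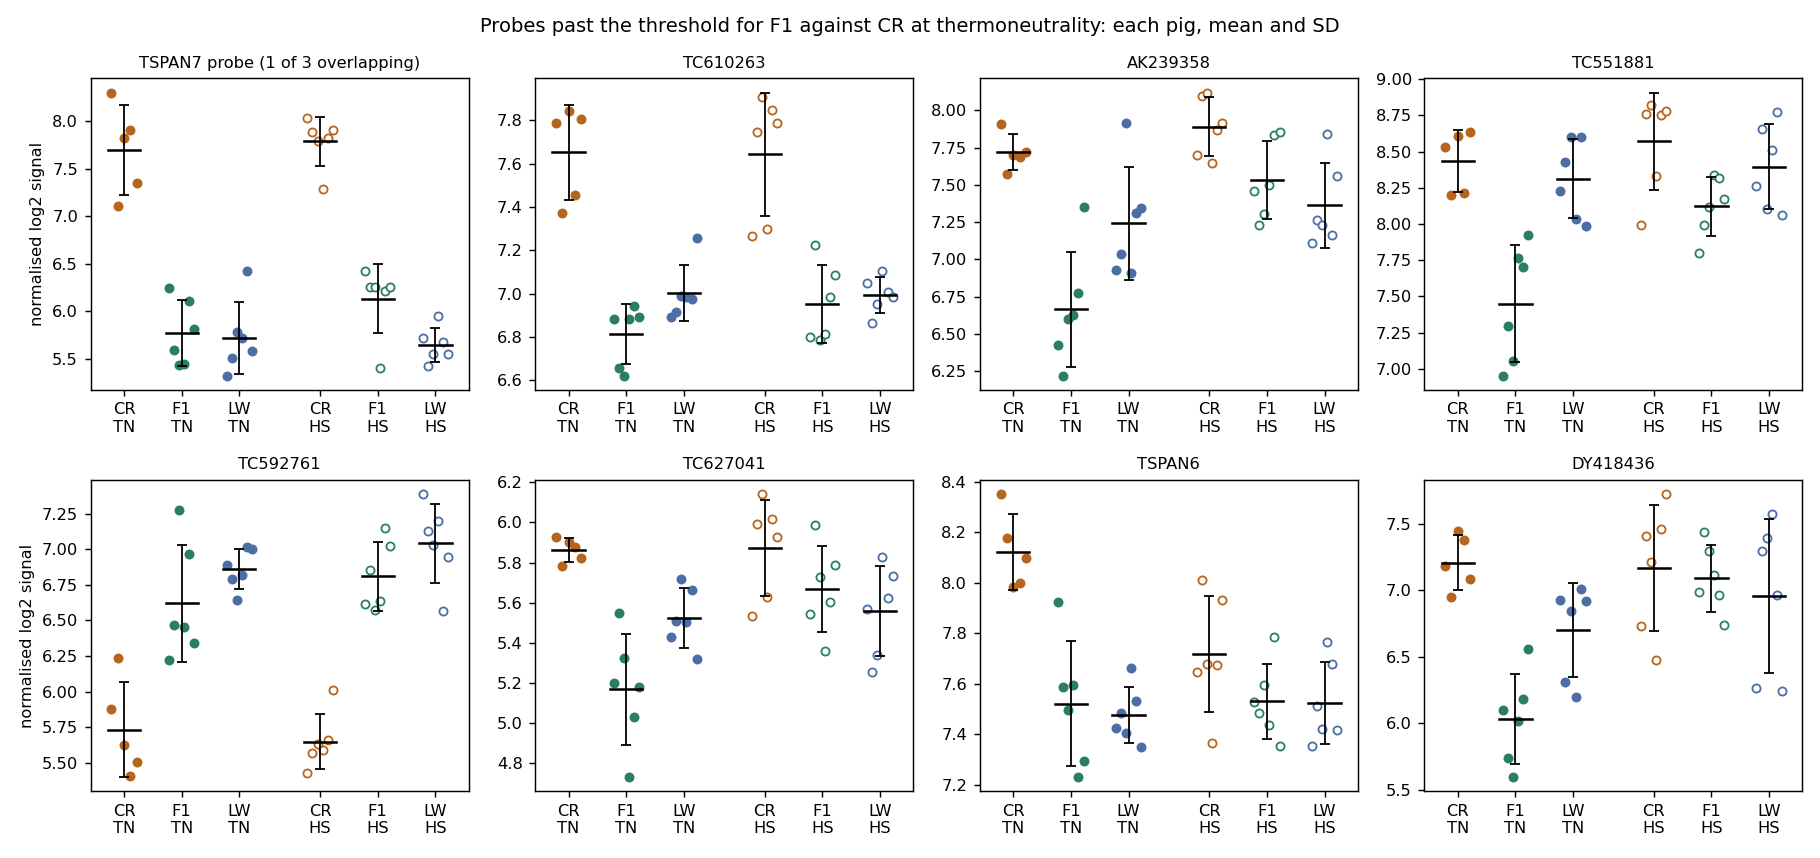
Normalised log2 signal (vertical axis, not from 0) of the probes past the threshold in each pig of the 3 breeds at thermoneutrality (TN, filled points) and under heat (HS, open points), with the mean and SD of each group. 1 of the overlapping TSPAN7 probes is drawn, and there every CR pig lies above 7 and every F1 and LW pig below 6.5 in both climates.

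A_72_P015431 belongs to a transcript assembly of unknown function. It read 7.79, 7.37, 7.84, 7.46 and 7.80 in CR TN and from 6.62 to 6.94, with a median of 6.88, in F1 TN. The groups did not overlap, and the difference was -0.84 (SE 0.12, adjusted p 2.98e-04 in limma). LW TN pigs ran from 6.89 to 7.26. Under heat the difference was -0.69 (adjusted p 0.00244 in limma), with CR from 7.27 to 7.91 and F1 from 6.79 to 7.22. A_72_P015431 shares a run of 19 bases with A_72_P630267, a probe of RPS4X. That probe gave -0.37 in TN (unadjusted p 0.0328 in limma) and 0.14 in HS.

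The probe of AK239358, a full-length porcine cDNA, read 7.91, 7.57, 7.70, 7.69 and 7.72 in CR TN. In F1 TN it ran from 6.22 to 7.35 with a median of 6.61, below every CR pig. The difference was -1.05 (SE 0.17, adjusted p 0.00635 in limma). LW TN pigs lay from 6.91 to 7.92, across both groups. Under heat the difference was -0.36 with an adjusted p of 1 in limma (unadjusted p 0.037). A_72_P135376, described in the files as similar to a centrosomal protein of the CEP170 kind, read 8.53, 8.20, 8.60, 8.21 and 8.63 in CR TN and from 6.95 to 7.92, with a median of 7.50, in F1 TN. It differed by -0.99 (SE 0.18, adjusted p 0.0227 in limma). Here F1 also lay under LW, whose pigs ran from 7.99 to 8.60, with F1 minus LW at -0.86 (unadjusted p 1.38e-05, adjusted p 0.262 in limma).

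A_72_P097651 was the probe that rose in F1. Its record resembles a coiled-coil domain protein. It read 5.88, 6.24, 5.62, 5.41 and 5.51 in CR TN, and in F1 TN it ran from 6.22 to 7.28 with a median of 6.46. The second CR pig, at 6.24, lay just inside the F1 range, so the groups overlapped. The difference was 0.89 (SE 0.17), 1.85-fold, with an adjusted p of 0.0333 in limma. LW TN pigs ran from 6.64 to 7.02, and F1 minus LW was -0.24. Under heat CR ran from 5.43 to 6.01 and F1 from 6.57 to 7.15, without overlap and with a difference of 1.16 (adjusted p 2.15e-04 in limma).

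The remaining probes that passed were dimmer or closer to the threshold. A_72_P366648 resembles the homolog of human C17orf85. It read 5.93, 5.78, 5.90, 5.88 and 5.82 in CR TN, well above background on 5 of 5 arrays, and was not well above background on any F1 TN array, where it ran from 4.73 to 5.55. It was at least 1.52-fold lower in F1, from a CR mean of 5.86 against a bound of 5.26 set by the dimmest signals still well above background (adjusted p 0.0333 in limma). The measured F1 mean was 5.17. With slide as a block the call was lost (adjusted p 0.0587 in limma).

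TSPAN6, a tetraspanin of the same family as TSPAN7, read 8.35, 8.18, 7.98, 8.00 and 8.10 in CR TN. In F1 TN its probe, A_72_P530953, ran from 7.23 to 7.92 with a median of 7.54, below all CR pigs. The difference was -0.60 (SE 0.12, adjusted p 0.0482 in limma). The call was lost with slide as a block (adjusted p 0.0804 in limma), and the probe passed in 3 of 20 settings. LW TN pigs ran from 7.35 to 7.66, also below all CR pigs. Under heat the difference was -0.19 and the groups overlapped, with CR from 7.37 to 8.01 and F1 from 7.35 to 7.78. A_72_P145376, an expressed sequence tag, read 7.18, 6.95, 7.45, 7.38 and 7.09 in CR TN and from 5.59 to 6.56 in F1 TN. Its difference was -1.18 (SE 0.23, adjusted p 0.0482 in limma) against -0.08 under heat, and with slide as a block its adjusted p was 0.0585 in limma.

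Of the 10 probes that passed in TN, 9 had groups that did not overlap, against 1.17% of all probes. All 10 had the same sign on each of the 4 slides that held both groups. The 10 were picked by p on these same values, so both counts describe them and are no support. All 10 had the same sign in HS, against 40.5% of all probes. Of the 10, 5 passed an adjusted p of 0.05 there as well, the 3 TSPAN7 probes (1 measurement), A_72_P015431 and A_72_P097651. In HS 22 probes (0.0563%) passed. The other 5 did not pass in HS. A limma test of the difference between the climates passed for none of the 39072 probes, with 4629 (11.8%) at an unadjusted p of 0.05 and a smallest adjusted p of 0.398. Against LW at thermoneutrality, 0 probes passed for F1, with 6702 (17.2%) at an unadjusted p of 0.05 in limma, and 33 (0.0845%) passed for CR, with 1454 (3.72%) at an unadjusted p of 0.05. Over all probes the median absolute difference F1 minus CR was 0.173 in TN and 0.0915 in HS.

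Beyond the probes that passed, the 10 gene symbols with the smallest p on the higher side did not pass, with adjusted p from 0.0803 to 0.148 in limma. These symbols were picked by p on the same values, which favours groups that do not overlap. Their differences ran from 0.816 to 4.05 on the log2 scale, and in 4 of the 10 the groups did not overlap, against 0.66% of all probes with F1 above CR. KIT, the receptor of stem cell factor on blood progenitors and mast cells and the gene of the dominant white coat colour in pigs, was 1 of the 4. Its probe read 7.08, 6.98, 6.80, 7.54 and 7.06 in CR TN, while F1 TN ran from 7.62 to 8.40 with a median of 7.78. LW TN was higher again, from 7.95 to 8.83. F1 minus CR was 0.82 (SE 0.17, adjusted p 0.0803) and CR minus LW was -1.32 (adjusted p 4.04e-05 in limma). Under heat F1 minus CR was 0.74 (adjusted p 0.078 in limma), with CR from 6.96 to 7.93 and F1 from 7.64 to 8.35. Of the other 4 KIT probes, 1 carries the same 60 bases and gave 0.74, and those elsewhere gave 0.49, 0.20 and 0.07.

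COX2 here is subunit 2 of cytochrome c oxidase, encoded by mitochondrial DNA, and not the prostaglandin enzyme. Its named probe, A_72_P746371, had the largest difference of these symbols, 4.05 (SE 0.97, adjusted p 0.148 in limma), and the CR pigs were far apart. The CR TN pigs read 12.26, 7.96, 8.14, 5.57 and 5.67. The F1 TN pigs kept to 11.56 to 12.42, with a median of 11.91. LW TN pigs ran from 8.55 to 12.43. The first CR pig thus lay within the F1 range and the rest more than 3 log2 units under it. Under heat the CR pigs ran from 5.67 to 11.67 and the F1 pigs from 12.21 to 12.90, a difference of 4.52 that passed (adjusted p 0.0484 in limma).

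A second COX2 probe, A_72_P751248, overlaps the first by 48 bases with 1 base different, A33T, counted from the 5′ end of A_72_P746371. Positions 18 to 47 of the first probe are shown with the matching bases of the second, since this base is the difference between them over the overlap. The capital marks it.
A_72_P746371: agtagacaatcgagtAgttctaccaataga
A_72_P751248: agtagacaatcgagtTgttctaccaataga
The second probe ran from 12.94 to 14.61 in CR TN and from 13.20 to 14.09 in F1 TN, and its difference was 0.36 (unadjusted p 0.238). The other 3 COX2 probes differed by -0.10, -0.08 and -0.01 in TN. Under heat all 4 were above 0, A_72_P751248 at 1.41 (unadjusted p 2.46e-05 in limma) and the others at 0.96, 0.97 and 1.22, each smaller than the 4.52 of A_72_P746371. Whether the pigs carry different bases at the position that differs was not tested.

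MYBPH, a myosin binding protein, read 7.59, 6.13, 5.95, 6.09 and 7.36 in CR TN and from 7.47 to 8.89, with a median of 7.89, in F1 TN. The difference was 1.35 (SE 0.31, adjusted p 0.132) in TN and 1.52 (adjusted p 0.0321) in HS, where it passed in limma. LW TN pigs ran from 7.18 to 8.41. Its 2 other probes in the table, which overlap it by 45 bases, gave 0.89 and 0.98. WWP1, a ubiquitin ligase, gave 0.89 in TN and 0.67 in HS, with CR TN at 6.76, 6.92, 6.89, 7.17 and 7.52 and F1 TN from 7.44 to 8.37. Its 6 other probes were all above 0, from 0.06 to 0.33.

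**Figure D2:**
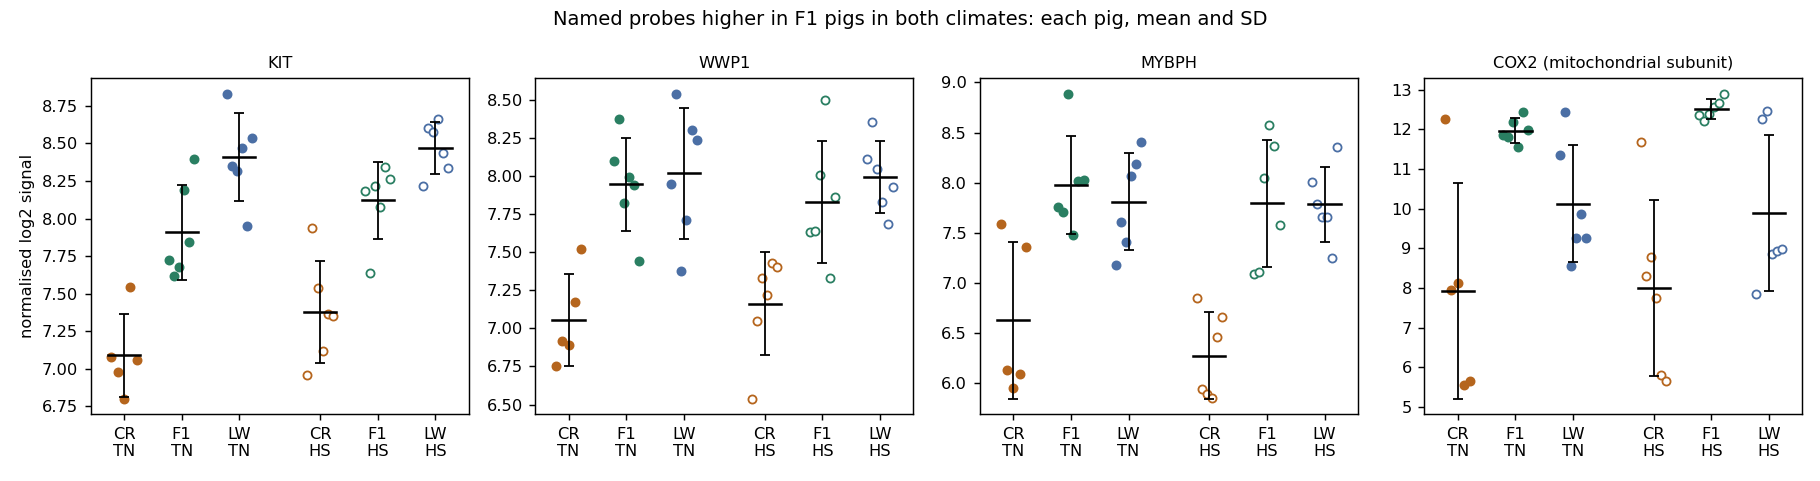
Normalised log2 signal (vertical axis, not from 0) of the KIT, WWP1, MYBPH and COX2 probes in each pig at thermoneutrality (TN, filled points) and under heat (HS, open points), with the mean and SD of each group. In COX2 the F1 pigs lie between 11.56 and 12.90, while CR pigs spread from 5.57 to 12.26 and LW pigs from 7.85 to 12.45.

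Other symbols on the higher side were close to 0 under heat. MTMR7, a lipid phosphatase, gave 0.82 in TN and 0.12 in HS. PKD2, a calcium channel of the cilium, gave 0.87 and 0.00. DCP2, which removes the cap from mRNA, gave 1.01 and -0.16, and the difference between these had an unadjusted p of 0.001. GPX2, a glutathione peroxidase, gave 0.94 and 0.13, CTDSP2, a phosphatase of RNA polymerase II, gave 1.08 and 0.02, and PPRC1, a coactivator of mitochondrial genes, gave 0.87 and 0.00. In TN the other probe of CTDSP2 gave -0.05, while the other probe of DCP2 gave 0.79. The other GPX2 probe gave 0.31, but it shares 19 bases with the named probe on the opposite strand. It was dim, with means of 5.235 in CR TN and 5.547 in F1 TN. Of the unnamed probes on this side, DN107609 gave 0.63 and TC566464 gave 0.95 in TN. None of these passed an adjusted p of 0.05 in limma.

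On the lower side, TSPAN7 and TSPAN6 passed and the next 8 symbols did not, with adjusted p up to 0.149 in limma. In 6 of the 10 the groups did not overlap, against 0.507% of all probes with F1 below CR, and these symbols too were picked by p. BHLHE41, a clock transcription factor, read 7.93, 7.50, 7.56, 7.48 and 7.96 in CR TN and from 6.46 to 7.21 in F1 TN, a difference of -0.79 without overlap, but its other probe gave 0.24. SDCCAG8, a centrosome protein, gave -0.74, with CR TN at 7.46, 7.13, 7.17, 7.66 and 7.62 and F1 TN from 6.45 to 7.11. YIPF5, a Golgi membrane protein, gave -0.68, with CR TN at 7.03, 6.30, 6.62, 6.54 and 6.44 and F1 TN from 5.57 to 6.18. The other YIPF5 probes gave -0.38 and -0.08. In AMY2, an amylase, F1 TN ran from 6.35 to 6.81, below the CR pigs at 7.47, 6.97, 7.11, 7.10 and 6.94. AMY2 differed by -0.60. Of 21 other probes that carry its name or share bases with it, 20 had the same sign, 16 of them with an unadjusted p under 0.05 in limma. Some of these overlap the named probe by 24 to 47 bases, so they are not separate measurements, and O13517 is named AMY2A.

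The last of these symbols had overlapping groups. COPS8, a subunit of the COP9 signalosome, gave -0.70, FPGT, an enzyme of fucose metabolism, gave -0.52, and FLJ41603 gave -0.85. Under heat COPS8, FPGT and FLJ41603 gave -0.02, -0.15 and -0.52. BHLHE41, SDCCAG8, YIPF5 and AMY2 gave -0.12, -0.16, -0.03 and 0.09 under heat. CCDC30 gave -0.88 in TN and 0.32 in HS, with an unadjusted p of 2.95e-04 for the difference between the climates, which did not pass. In LW TN, BHLHE41 ran from 6.65 to 7.63, SDCCAG8 from 6.88 to 7.60 and YIPF5 from 6.09 to 7.16, each across the gap between F1 and CR.

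**Figure D3:**
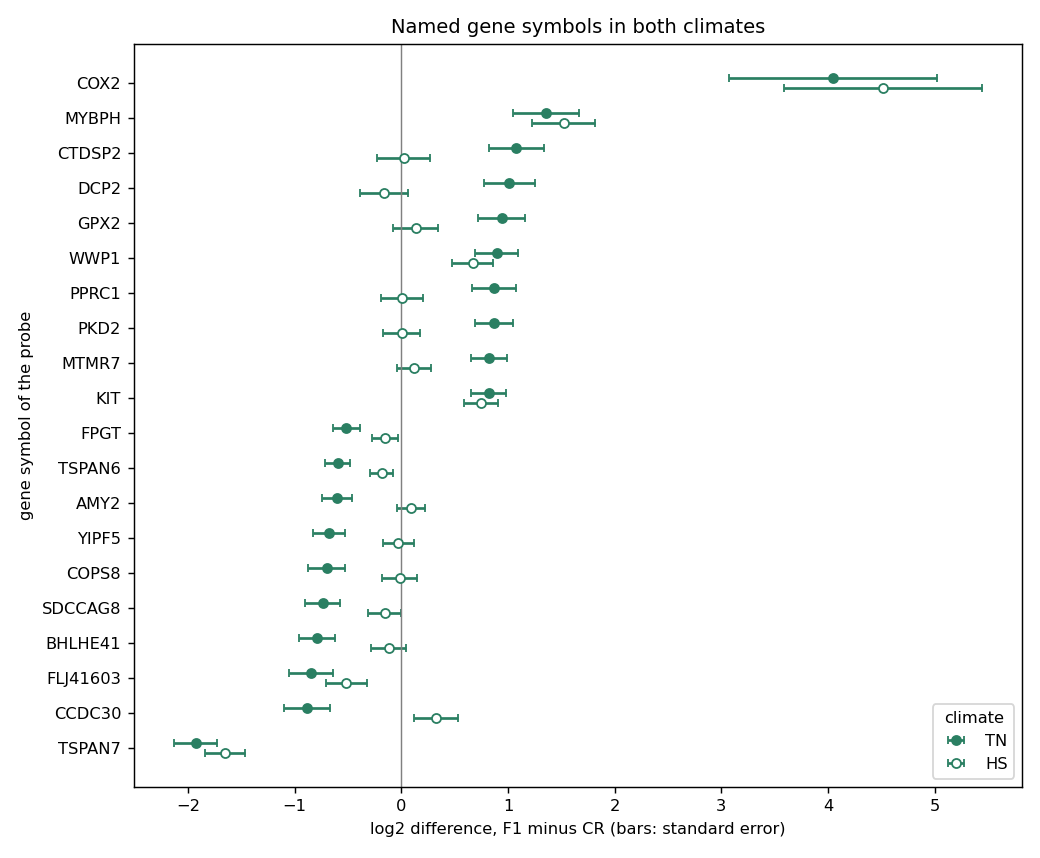
Log2 difference F1 minus CR (horizontal axis) of the probe named for each gene symbol at thermoneutrality (filled points) and under heat (open points), with bars of 1 standard error. Under heat TSPAN7, KIT, MYBPH and COX2 lie at -1.65, 0.74, 1.52 and 4.52, while PKD2, PPRC1 and CTDSP2 lie at 0.00, 0.00 and 0.02.

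The arrays of the F1 pigs were dimmer as a group. The 75th percentile of the processed signal (gProcessedSignal, Agilent's background-subtracted intensity) was 328.8, 146.0, 201.2, 227.0 and 236.1 in CR TN. In F1 TN it ran from 112.0 to 185.9 with a median of 152.0, and in LW TN from 167.4 to 249.7. All but 1 of the CR arrays lay above every F1 array. On the log2 scale the difference was -0.577 (two-sided exact permutation test over 462 splits, p = 0.0238, adjusted p = 0.0548 over 4 measures), and in HS it was 0.106 (exact p = 0.591). Within the 4 slides holding both groups it was -0.452, -0.845, -0.76 and -0.399. Without CR TN replicate 1 it was -0.433 (exact p = 0.0524).

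Other measures moved with it. The share of probe spots well above background was 65.15% ± 3.0 (SD, n = 5) in CR TN and 60.02% ± 3.3 (SD, n = 6) in F1 TN (exact permutation p = 0.0325, adjusted p = 0.0548). The 10 brightest probes took 4.85% of the raw signal in CR TN and 5.92% in F1 TN (exact permutation p = 0.0411, adjusted p = 0.0548), and globin probes 0.296% and 0.381% (exact permutation p = 0.0996). With the log2 75th percentile as a covariate in limma, 6 probes passed in place of 10 and 1211 in place of 6021 had an unadjusted p of 0.05. Of those 6, 4 were among the 10, the TSPAN7 probes and A_72_P015431.

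**Figure D4:**
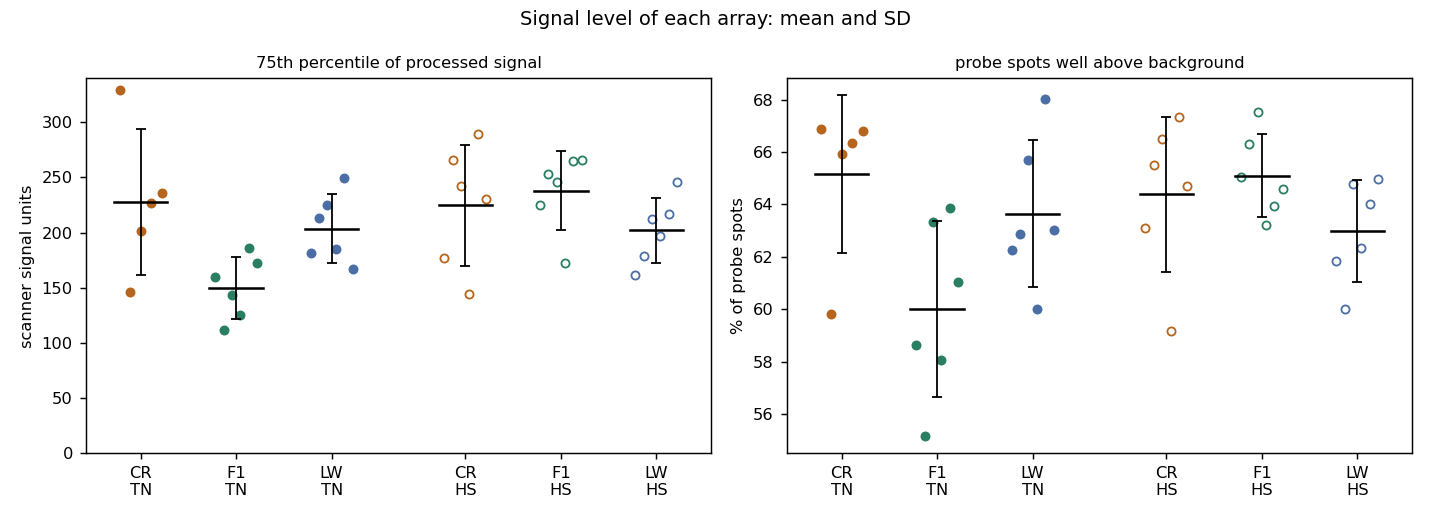
75th percentile of the processed signal and percentage of probe spots well above background (vertical axes) for each array of the 6 groups (filled points TN, open points HS), with the mean and SD. The axis of the percentages does not start at 0. The F1 arrays at thermoneutrality lie from 112.0 to 185.9 and those under heat from 172.1 to 265.8.

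The processed signal, before normalization, was also read for the named probes. A_72_P166441 of TSPAN7 had a median processed signal of 205.2 in CR TN, 17.7 in F1 TN and 20.2 in LW TN. TSPAN6 had medians of 292.2, 124.1 and 184.4. KIT had 120.1 in CR TN, 150.5 in F1 TN and 294.6 in LW TN, and there the F1 and CR arrays overlapped, from 85.3 to 243.0 against 68.5 to 177.0. MTMR7, PKD2 and DCP2, whose groups did not overlap after normalization, overlapped in processed signal too. MTMR7 ran from 81.62 to 145.1 in F1 TN against 53.65 to 86.04 in CR TN. PKD2 ran from 213.6 to 360.5 against 180.6 to 302.0, and DCP2 from 358.5 to 514.8 against 201.9 to 458.2. PPRC1 had 2330 in CR TN and 2606 in F1 TN, also with overlap. GPX2, 0.94 higher in F1 after normalization, had 1272 in CR TN and 1241 in F1 TN. No probe spot was saturated.

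Gene lists were then described by role, each by the median of its genes' log2 differences beside that of all 10506 genes, which was -0.03 in TN and 0.00 in HS. In TN 44.5% of all genes were above 0, 1016 genes (9.67%) were higher and 669 (6.37%) lower at an unadjusted p of 0.05, and no list member passed an adjusted p of 0.05 in limma. Every member named in these lists is therefore given as a value.

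The 3 lists of immature red cells had medians above 0 at thermoneutrality. Of 13 genes of the red cell membrane, 12 were above 0 with a median of 0.46, 15 of 18 genes of haem and globin with a median of 0.35, and 14 of 17 genes of red cell maturation with a median of 0.25. At an unadjusted p of 0.05, 2, 3 and 2 of them were higher and none lower. CA1, the carbonic anhydrase of red cells, differed by 1.42 (SE 0.61, unadjusted p 0.0259), above 0 in 5 of 5 probes, with CR TN from 9.19 to 12.44 and F1 TN from 10.47 to 13.45. ALAD, an enzyme of haem synthesis, differed by 0.96 (SE 0.40). AHSP, the chaperone of alpha globin, differed by 0.55 (SE 0.24), with CR TN from 16.9 to 17.8 and F1 TN from 17.1 to 18.4. KEL, a blood group antigen, gave 0.46 and AQP1, a water channel, gave 0.67, and in all of these the groups overlapped.

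The medians of these lists were also read beside the array signal level. In HS, where the log2 signal level differed by 0.106, the medians were -0.18, -0.21 and -0.16. With the log2 75th percentile as a covariate the TN medians were -0.05, -0.13 and -0.10. Signal level itself differed between the F1 and CR arrays in TN, so this covariate cannot be told apart from breed. The part of signal level in the difference was not tested. With the mean of the 3 lists as a covariate, 9 probes passed in limma and 3894 had an unadjusted p of 0.05.

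B cell genes had a median under 0. Of 12 measured, 11 were under 0 with a median of -0.35, 3 were lower and 1 higher at an unadjusted p of 0.05. FCRLA, an Fc receptor-like protein of B cells, ran from 6.76 to 7.32 in CR TN and from 5.86 to 6.73 in F1 TN, without overlap (1.3% of all genes have groups without overlap), a difference of -0.61 (SE 0.19, unadjusted p 0.00283). BLNK, an adaptor of the B cell receptor, gave -0.44 (SE 0.15), EBF1, a B lineage factor, gave -0.45 (SE 0.19), and PAX5, another, gave 0.42 (SE 0.18). All 3 measured immunoglobulin genes were under 0, with a median of -0.65, including IGLL1 at -0.70 and IGJ, the joining chain of antibodies, at -0.65. Of 14 genes of MHC class II, which presents peptides on B cells and monocytes, 12 were under 0 with a median of -0.23, with SLA-DQB1 at -0.52 and SLA-DOA at -0.47, while RFXANK, a regulator of class II genes, was at 0.58. In HS the medians of B cell, immunoglobulin and class II genes were -0.07, -0.03 and -0.05. With the log2 75th percentile as a covariate the TN medians were -0.23, -0.20 and -0.11.

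Of the genes of cytotoxic lymphocytes, 18 of 20 were above 0 with a median of 0.27 in TN and -0.06 in HS. CD244, a receptor of natural killer cells, ran from 8.54 to 9.54 in CR TN and from 9.53 to 9.85 in F1 TN, a difference of 0.65 (SE 0.18, unadjusted p 9.7e-04). XCL1, a lymphocyte chemokine, gave 0.46 and GZMM, a granzyme, gave 0.38, but GZMK, another granzyme, gave -0.58. The T cell list had a median of -0.08, with 13 of 17 under 0 and none at an unadjusted p of 0.05. Platelet genes had a median of -0.20, neutrophil genes -0.06 and monocyte genes -0.08, none of them with a member at an unadjusted p of 0.05.

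**Figure D5:**
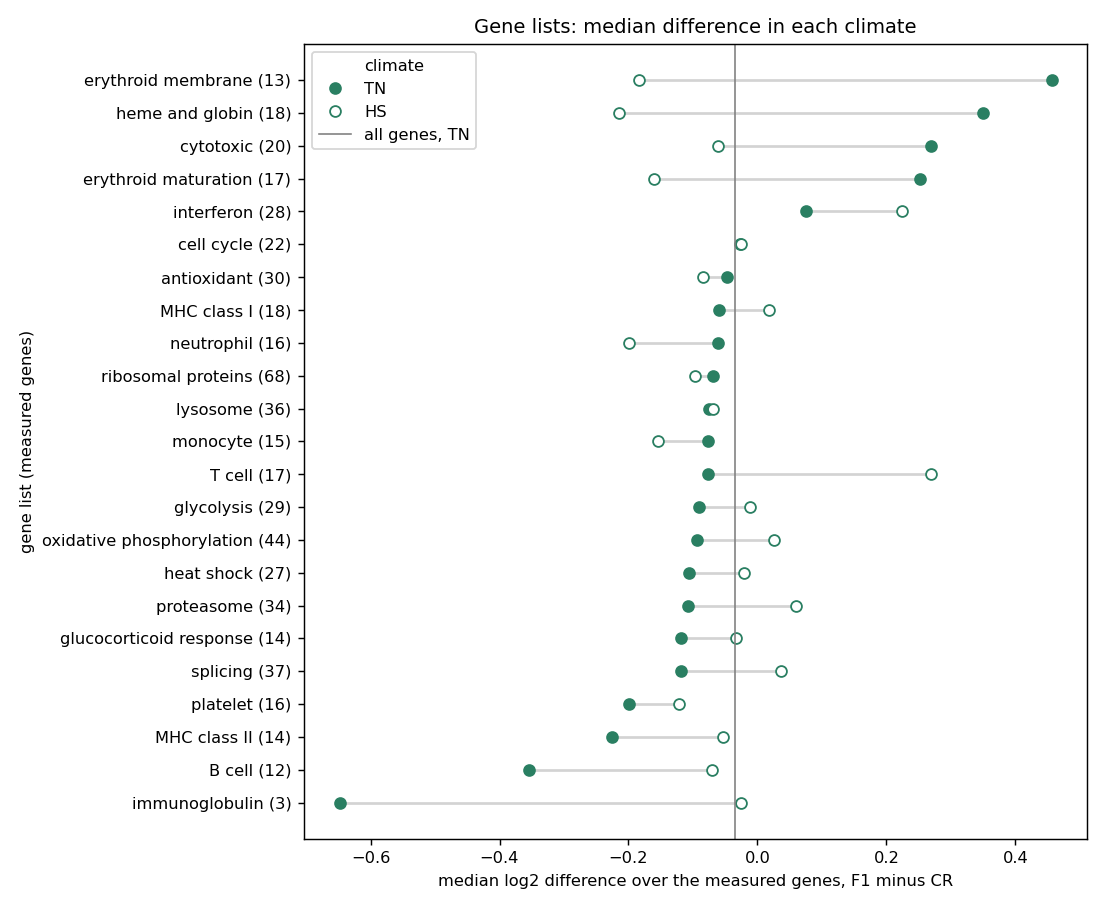
Median log2 difference F1 minus CR of the genes of each list (horizontal axis) at thermoneutrality and under heat, filled and open points, with the median of all genes in TN as a line. The red cell lists and the cytotoxic list lie highest at thermoneutrality and the immunoglobulin and B cell lists lowest.

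Interferon genes had a median of 0.08 in TN and 0.22 in HS. XAF1, an interferon-induced gene of cell death, gave 0.76 in TN and 0.77 in HS (unadjusted p 0.0129 and 0.00885). Of 18 genes of MHC class I and its peptide loading, the median was -0.06, and SLA-6 gave -0.62 in TN and -0.69 in HS (unadjusted p 0.0116 and 0.00407). SLA genes differ between breeds and resemble each other in sequence, so a probe's value can join several of them.

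Among stress genes, HSPE1, the mitochondrial partner of HSP60, ran from 10.71 to 11.05 in CR TN and from 9.87 to 10.86 in F1 TN. It differed by -0.56 (SE 0.14, unadjusted p 5e-04), under 0 in 6 of 6 probes. HSF1, the main heat shock factor, gave 0.40 (SE 0.14). The heat shock list had a median of -0.11, with 19 of 27 under 0, and -0.02 with the 75th percentile as a covariate. GPX1, the glutathione peroxidase of red cells and other cells, ran from 14.9 to 16.5 in CR TN and from 16.3 to 17.1 in F1 TN, a difference of 0.84 (SE 0.25, unadjusted p 0.00182) that was above 0 in 6 of 6 probes. GPX3 gave 1.21 (SE 0.60), SRXN1, which repairs peroxiredoxins, gave 0.53 and PRDX1, a peroxiredoxin, gave -0.33. The antioxidant list as a whole had a median of -0.05. ZBTB16, a transcription factor induced by glucocorticoids, ran from 6.57 to 6.82 in CR TN and from 6.95 to 7.42 in F1 TN, without overlap, a difference of 0.44 (SE 0.11, unadjusted p 2.35e-04) against -0.04 in HS. The glucocorticoid list had a median of -0.12.

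The housekeeping lists had medians of -0.12 to -0.03. Of 44 genes of oxidative phosphorylation, 36 were under 0 with a median of -0.09, 7 lower and 1 higher at an unadjusted p of 0.05. COX5A, a subunit of cytochrome c oxidase encoded in the nucleus, gave -0.80 (SE 0.32), and NDUFS1, a subunit of complex I, gave 0.45 (SE 0.15). Of 68 ribosomal protein genes, 45 were under 0 with a median of -0.07 and 8 were lower at an unadjusted p of 0.05, among them RPL27 at -0.35 (SE 0.11). Scaling on the 75th percentile turned the ribosomal median to 0.03. Of 37 splicing genes, 30 were under 0 with a median of -0.12, with PRPF8 at -0.29 and SF3B3 at -0.23. Glycolysis had a median of -0.09, with HK1, the hexokinase of red cells and most tissues, at -0.33 without overlap. The medians of the proteasome, lysosome and cell cycle lists were -0.11, -0.08 and -0.03.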

How the data were processed

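Blood RNA of 35 pigs was hybridised to 1-colour arrays, and the scanned images were read with Agilent Feature Extraction 10.10.1.1 per the labels. The authors' log2 table was deposited after quantile normalization of median signals, and they kept expressed probes by a rule not given in the sources used here. Processed signal and other intensity columns came from the scanner files the authors deposited. A fit of 6 group means over 35 arrays was made in R 4.3.3 with limma 3.58.1 (lmFit, contrasts, eBayes, Benjamini-Hochberg over 39072 probes or 10506 genes). The code was tested on simulated data. Figures and tables used Python 3.11.15, pandas 2.3.3 and numpy 2.4.6.

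Array names were updated through a RefSeq table of Sscrofa11.1: of 60306 probe spots, 21847 matched by symbol, 626 by older symbol, 2242 by gene ID and 1809 by accession, 1381 kept the file's name and 32401 had none. A gene's value was the mean of its probes. Per direction, the 10 symbols and 3 unnamed probes with the largest difference among those past the threshold were named, filled up by smallest p, and 4 members of each of 23 lists by smallest p. The Agilent flags marked 85 spots of the 11 arrays as outliers, and these were kept. The number of arrays limits the precision. Members, lists and tests were chosen with earlier results of these data known. Alternatives were other normalizations, a filter on dim probes, array weights, slide as a block, covariates for signal and erythroid level, fewer arrays and leaving out each array. Promoter and protein sequences were not used here.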

Additional observations from a re-analysis of the deposited data

Results flagged for a closer look

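In 1 of 68 groups of values examined, 1 pig stood apart from the others of its group. In CR TN replicate 2, 59.81% of the probe spots were well above background, against 65.93% to 66.87% in the other CR TN arrays. The same array had the lowest 75th percentile of the processed signal in its group, 146.0, and without it the difference in log2 signal level was -0.726. Chance gives such a gap in about 1 of 20 groups.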

How the results depend on the processing

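The number of probes past the threshold in TN, 10, became 72 in an additive model of breed and climate (8 shared with the 10), 6 with the log2 75th percentile as a covariate (4 shared) and 3 with the arrays of both groups alone (the TSPAN7 probes). In the 7 remaining settings it was from 7 to 12, with 7 of 10 shared under slide as a block, where TSPAN6, A_72_P145376 and A_72_P366648 were lost. Leaving out 1 array gave 5 to 33, with 5 without CR TN replicate 3, CR TN replicate 5 or F1 TN replicate 3, 6 without CR TN replicate 1 or F1 TN replicate 4, 17 without F1 TN replicate 1 and 33 without F1 TN replicate 6. The TSPAN7 probes passed in all 20 settings, A_72_P015431 in 19, AK239358 in 18, A_72_P135376 in 13, A_72_P097651 in 11, A_72_P366648 in 6, A_72_P145376 in 4 and TSPAN6 in 3. No named probe changed sign. The number of genes, 2, became 0 with the brightest probe of each gene or the arrays of both groups alone, 1 with normexp (TSPAN7), 1 with the 75th percentile covariate (neither of the 2), and 1 to 4 on leaving out 1 array. In HS the 22 probes became 8 with the arrays of both groups alone and 51 with array weights, and the test between climates gave 0 in every setting by limma. The difference in log2 signal level ran from -0.726 to -0.433 on leaving out 1 array, with exact permutation p from 0.00476 to 0.0524. The red cell list medians changed sign with the 75th percentile covariate, to between -0.13 and -0.05, other small medians did so in some settings, and the B cell, cytotoxic, MHC class II, immunoglobulin and heat shock medians kept their sign in all 20, though with the 75th percentile covariate the immunoglobulin median moved from -0.65 to -0.20. The causes were not tested. No paired analysis was possible because the labels give no replicate numbers that pigs of different groups share. Dim probes, near or under background, carry the least precise differences.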
